A study of Mus musculus with 31 samples.

Results

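The genes described here are 32 mouse genes of homologous recombination and the Fanconi anemia (FA) pathway, chosen by name with no measured value in the rule, but with earlier results of these data known. All 32 were found, by gene name, among the 46072 genes listed in every library. RM-9 is a mouse prostate cancer cell line and MC-38 a mouse colon cancer cell line. Each was injected under the skin of the right hind leg of wild-type male C57BL/6J mice, which were 6 to 7 weeks old at purchase, and tumors were treated at about 8 mm in diameter. Control tumors received no treatment, and the other tumors received radiation therapy (RT) as a single dose of 15 Gy and were taken 3 h, 12 h or 24 h later. Messenger RNA of whole tumors was sequenced in 31 libraries, 1 per mouse. There were 4 mice in each group of both models, except RM-9 RT 24 h, which had 3 mice. The control libraries carry the 3 h time point in their labels, so the 12 h and 24 h groups had no control of their own time, and the 3 RT groups of either model share 1 control group of 4 mice.

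Homologous recombination repairs a DNA double-strand break by copying from the sister chromatid, and it works mainly in S and G2 phase. Nucleases first trim the broken ends, BRCA2 and its partners prepare the single strand for pairing with the intact copy, and helicases and nucleases resolve the joined molecules. The FA pathway deals with crosslinks between the DNA strands: a core complex attaches ubiquitin to FANCI and FANCD2, which then direct nucleases and recombination proteins to the lesion. Many of these genes are transcribed most in dividing cells.

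The libraries held an estimated 21.4 to 29.4 M reads each. Among targets of the p53 response to DNA damage, Cdkn1a, which halts the cell cycle, rose at 3 h from a mean of 97.6 to 190.1 TPM, a level scaled by transcript length and library total, in RM-9 tumors (adjusted p = 0.0106, limma) and from 58.2 to 101.8 TPM in MC-38 tumors (adjusted p = 0.0195, limma). Mdm2, which brakes p53, rose by 1.27 ± 0.19 (SE) and by 1.11 ± 0.15 (SE) on the log2 scale at the same time. The keratins Krt8, Krt18 and Krt19 were high in RM-9 tumors, with a median of 767 TPM for Krt8, but Epcam did not exceed 1.92 TPM, Cdh1 did not exceed 0.977 TPM and Cldn7 was listed at 0. The prostate markers Pbsn, Tmprss2 and Psca were listed at 0 in every library of both models, and Hoxb13, another prostate marker, had a median of 0 TPM in RM-9 and 2.33 TPM in MC-38 tumors. In MC-38 tumors, Krt8, Krt18, Krt19 and Epcam did not exceed 0.572 TPM, and the intestinal factors Cdx1 and Cdx2 were listed at 0. Cdx2 and the intestinal keratin Krt20 were instead measured in RM-9 tumors, at 3.74 to 7.68 and 2.16 to 11.4 TPM. These markers therefore did not follow the labelled tissues of origin. The 15 genes of skeletal muscle varied most, from a summed 3.74 to 13365 TPM, and the highest value was that of MC-38 control mouse 1.

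By deposited TPM, the 32 genes were lowly expressed in RM-9 tumors and several times higher in MC-38 tumors. The mitochondrially encoded genes took 47.3% to 57.2% of TPM in RM-9 and 22.5% to 40.6% in MC-38 libraries. Their part in this difference was not tested beyond the scalings given below for untreated tumors. Averaged over the libraries of a model, single genes ranged from 0.332 to 15.1 TPM in RM-9 tumors, with a median gene at 2.70 TPM, and from 2.60 to 35.5 TPM in MC-38 tumors, with a median gene at 11.6 TPM. On this scale per length, levels of different genes can be set beside each other, but some rest on little sequence. Fancc, a core complex gene, had a deposited level 9.43 to 13.8 times that implied by its read coverage, and the source of this ratio was not tested. Its median coverage was 0.494 reads per base in RM-9 and 0.913 reads per base in MC-38 tumors. Over all 32 genes, the median coverage of a gene ranged from 0.494 to 16.2 reads per base in RM-9 and from 0.913 to 42.2 reads per base in MC-38 tumors. The order in RM-9 tumors was led by Fance at 15.1 TPM, a core complex subunit, Mre11a at 10.1 TPM, the nuclease of the MRN complex that senses broken ends, and Rbbp8 at 8.22 TPM, its cofactor. In MC-38 tumors it was led by Fanca at 35.5 TPM, a core complex subunit, Rad50 at 32.6 TPM, the MRN subunit that tethers the ends, and Fance at 31.9 TPM. These orders hold for TPM and differ by coverage. By median coverage, MC-38 tumors were led by Rad50 at 42.2, Nbn at 26.2 and Mre11a at 22.6 reads per base, ahead of Fanca at 20.1. In RM-9 tumors Mre11a, at 16.2 reads per base, was ahead of Fance. The deposited level was a median of 2.26 times that implied by coverage for Fanca and 2.54 times for Fance, against 1.055 times for Rad50. By TPM, the last places in RM-9 tumors were held by Rad51c at 0.362 TPM and Rad51b at 0.332 TPM. These 2 genes did not reach the mean of 0.5 TPM needed for a test in RM-9 tumors, where 30 of the 32 genes were tested. All 32 were tested in MC-38 tumors.

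**Figure D1:**
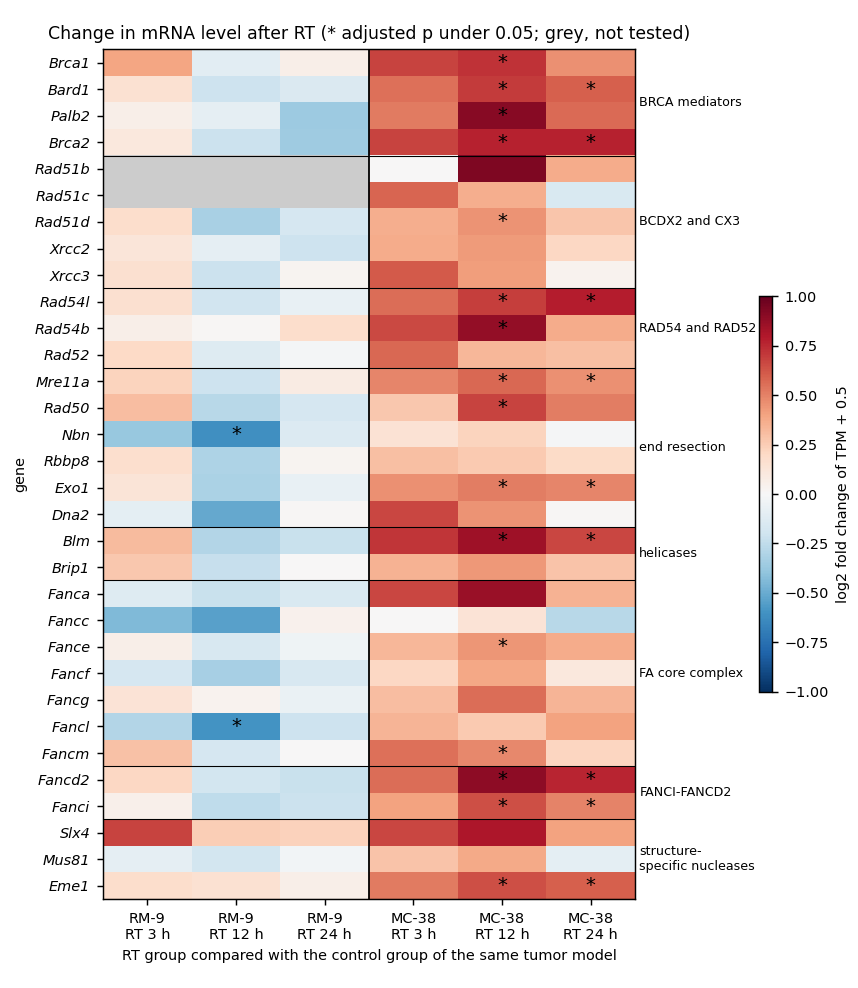
Log2 fold change of TPM + 0.5 for each of the 32 genes (rows, grouped by role) in each RT group against the control group of the same tumor model (columns). An asterisk marks an adjusted p under 0.05 and grey marks the 2 genes not tested in RM-9 tumors. The RM-9 columns are mostly pale with 2 asterisks, both at 12 h for a fall, and the MC-38 columns are mostly red with 16 asterisks at 12 h and 9 at 24 h.

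No gene of the 30 passed the test in RM-9 tumors at 3 h after RT. Over all 14013 genes tested, 0.200% were called higher and 0.0285% lower at that time. The median log2 fold change of the 30 genes was 0.14, against 0.06 for all genes tested, and 3 of the 30 had an unadjusted p under 0.05, against 21.8% of all genes. The gene with the smallest p was Slx4, the scaffold on which structure-specific nucleases assemble (chr16:3979105-4003770). Its level was 8.13, 8.69, 6.36 and 8.84 TPM in the RT mice and 3.87, 4.59, 5.53 and 5.35 TPM in the control mice. All RT mice lay above all control mice, as in 2 of the 30 genes and 9.88% of all genes, but the log2 fold change of 0.67 ± 0.17 (SE) had an adjusted p of 0.103. Nbn, the MRN subunit that recruits the ATM kinase (chr4:15957925-15992589), had a log2 fold change of -0.38 ± 0.13 (SE, adjusted p = 0.147), and Brca1, the ubiquitin ligase that promotes end resection and PALB2 loading, one of 0.40 ± 0.18 (SE, adjusted p = 0.212). With TPM rescaled by the median ratio of all genes, Slx4 was called higher (adjusted p = 0.031) and Nbn lower (adjusted p = 0.0468). On that scale 237 of the 14013 genes were called higher and 169 lower.

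At 12 h after RT, Nbn and Fancl were lower in RM-9 tumors and the remaining 28 tested genes did not pass. Of all genes tested, 8.30% were called lower at this time and 0.0714% higher. Nbn was at 2.73, 3.29, 3.58 and 3.02 TPM in the RT mice, against 5.60, 4.68, 4.31 and 5.80 TPM in the control mice. It fell by 0.61 on the log2 scale (SE 0.13, adjusted p = 0.0272). Fancl, the ubiquitin ligase subunit of the FA core complex (chr11:26386135-26471876), was at 1.23, 1.05, 1.44 and 1.09 TPM after RT and at 2.00, 2.22, 1.54 and 2.65 TPM in the control mice. It fell by 0.60 on the log2 scale (SE 0.14, adjusted p = 0.0303). For both genes the groups did not overlap. Fancf, the adaptor of the core complex, came next by p, with a log2 fold change of -0.33 ± 0.11 (SE, adjusted p = 0.0655). Of the 30 genes, 6 lay below all control mice in all RT mice, against 19.4% of all genes, and the median log2 fold change was -0.21, against -0.19 for all genes tested. The mitochondrially encoded genes took 52.4% to 57.2% of the TPM of these RT mice and 47.8% to 50.5% of that of the control mice, and their part in the lower levels was not tested beyond the scalings given here. With TPM rescaled without the mitochondrially encoded genes none of the 30 passed, with a median of -0.10, and 0.479% of all genes were called lower. With the median-ratio scaling neither gene passed (adjusted p = 0.11 for Nbn and 0.168 for Fancl), and the median of the 30 genes was -0.03, against 0.01 for all genes. With control mouse 3 left out 3 of the 30 genes fell, and the share of all genes in that fit is not given. Neither Nbn nor Fancl was called when any 1 of control mice 1, 2 and 4 or RT mice 1 and 4 was left out.

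At 24 h no RM-9 gene of the 30 passed, and neither did any of the 14013 genes tested with limma, of which 4.86% had an unadjusted p under 0.05. Among the 30, only Palb2 had an unadjusted p under 0.05. Palb2, the bridge between BRCA1 and BRCA2, was at 0.950, 1.17 and 1.14 TPM in the 3 RT mice and at 1.32, 1.68, 1.25 and 1.97 TPM in the control mice, without overlap (2.24% of all genes lay below their controls in this way), with a log2 fold change of -0.36 ± 0.16 (SE, adjusted p = 0.999). Brca2, a central mediator of recombination, followed with -0.36 ± 0.19 (SE) and Fancl with -0.21 ± 0.15 (SE), both with an adjusted p of 0.999. Between 24 h and 3 h, no gene of the 30 differed by this test and 7 had an unadjusted p under 0.05, against 20.9% of all genes. The smallest p values there belonged to Blm, the helicase that dissolves double Holliday junctions (log2 fold change -0.53 ± 0.19, SE), to Rad50 (-0.48 ± 0.17, SE) and to Palb2 (-0.42 ± 0.16, SE), with adjusted p values of 0.176, 0.176 and 0.181.

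**Figure D2:**
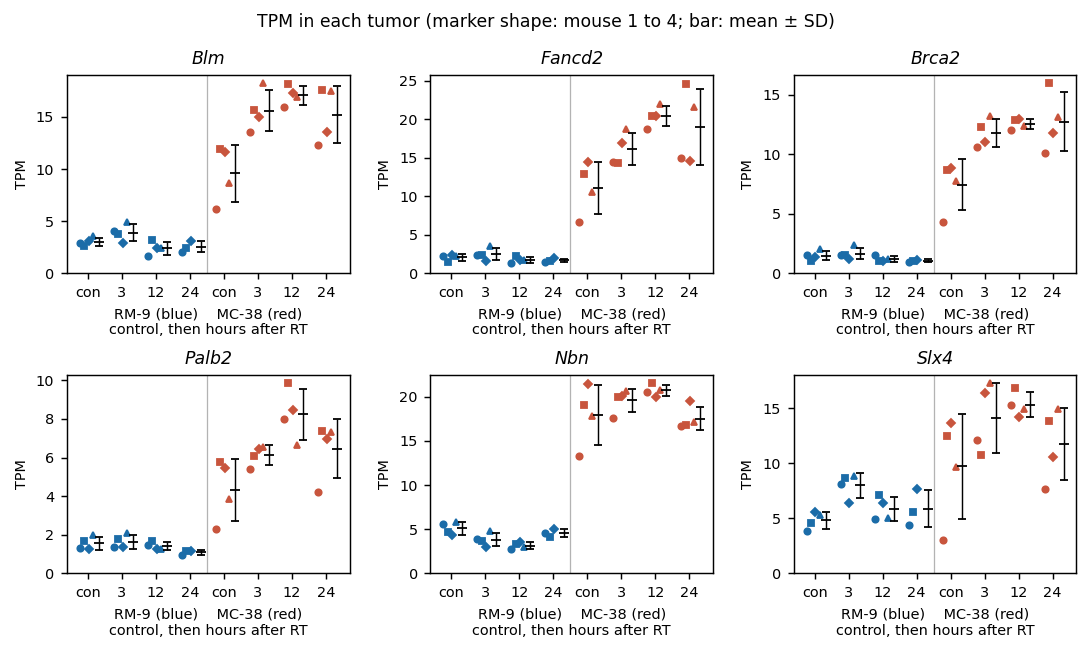
TPM of 6 of the genes in each tumor, by group, with 1 marker shape for each mouse number and black bars for the mean ± SD. In MC-38 tumors Blm, Fancd2, Brca2 and Palb2 are higher in all 4 RT 12 h mice than in all 4 control mice, with control mouse 1 lowest of the controls, while in RM-9 tumors Nbn is lower at 12 h and Slx4 is higher at 3 h.

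In MC-38 tumors, all 32 genes had a positive log2 fold change at 3 h after RT, but none passed the adjusted threshold. A positive change was also found in 12487 of the 15698 genes tested. Of the 32, 29 were positive with median-ratio scaling and 30 without control mouse 1. Only 0.0510% of the 15698 genes tested were called higher at this time. The median of the 32 was 0.50, against 0.19 for all genes. There were 12 genes whose 4 RT mice all lay above the 4 control mice, against 7.20% of all genes, and 19 had an unadjusted p under 0.05, against 19.9% of all genes. The 3 smallest p values were those of Blm, Dna2 and Brca2. Blm was at 13.6, 15.6, 15.0 and 18.2 TPM at 3 h and at 6.11, 11.9, 11.6 and 8.70 TPM in the control mice, a log2 fold change of 0.71 ± 0.18 (SE, adjusted p = 0.103). Dna2, a nuclease and helicase of long-range resection, was at 21.9, 20.98, 22.6 and 23.1 TPM at 3 h against 9.57, 16.2, 18.05 and 12.7 TPM in the control mice (log2 fold change 0.67 ± 0.18, SE, adjusted p = 0.124). Brca2 had a log2 fold change of 0.68 ± 0.19 (SE, adjusted p = 0.132). In all 3 genes the RT mice did not overlap the control mice. An exact permutation test on mean TPM gave p = 0.0286 for each, the smallest p that 70 assignments of 4 against 4 mice allow. That value follows from the lack of overlap and adds no support of its own.

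At 12 h after RT, 16 of the 32 genes rose in MC-38 tumors and none fell. Among all genes tested, 28.5% were called higher and 2.59% lower. The 32 genes had a median log2 fold change of 0.54, against 0.33 for all genes, and in 19 genes the RT mice all lay above the control mice, against 34.5% of all genes. An unadjusted p under 0.05 was found for 24 of the 32, against 48.1% of all genes. By role, all 4 genes of the BRCA group rose, namely Brca1, Bard1, Palb2 and Brca2. Both genes of the ubiquitinated FA pair, Fancd2 and Fanci, rose as well. Of the other roles, 3 of 6 end resection genes rose (Mre11a, Rad50 and Exo1), as did Rad54l and Rad54b among the 3 genes of RAD54 and RAD52, Blm of the 2 helicases, and Eme1 of the 3 nuclease genes. Only 2 of 7 core complex genes (Fance and Fancm) and 1 of the 5 genes Rad51b, Rad51c, Rad51d, Xrcc2 and Xrcc3 (Rad51d), whose products form accessory complexes of strand exchange, passed. The core complex genes had a median log2 fold change of 0.44 and these 5 genes one of 0.43, and whether the roles differed from each other was not tested.

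Palb2 changed most among the genes that passed (chr7:122107262-122132946). It was at 8.02, 9.84, 8.45 and 6.64 TPM at 12 h and at 2.29, 5.75, 5.45 and 3.83 TPM in the control mice, and rose by 0.91 ± 0.23 (SE, adjusted p = 0.0159) on the log2 scale. Fancd2, which marks the crosslink once ubiquitinated (chr6:113531682-113597017), was at 18.7, 20.4, 20.5 and 21.9 TPM against 6.67, 12.9, 14.4 and 10.5 TPM, and rose by 0.90 ± 0.21 (SE, adjusted p = 0.013). The RT mice of both genes lay above all control mice and were closer to each other than the control mice were. Rad54b, a motor protein that remodels DNA during strand exchange, was at 10.6, 10.7, 10.1 and 13.03 TPM against 2.64, 8.05, 8.01 and 6.28 TPM (0.88 ± 0.28, SE, adjusted p = 0.03). Blm (chr7:80454993-80535119) was at 15.965, 18.2, 17.3 and 16.9 TPM at 12 h and rose by 0.85 ± 0.18 (SE, adjusted p = 0.0107). Brca2 (chr5:150522630-150570329) was at 12.0, 12.9, 12.96 and 12.3 TPM against 4.28, 8.71, 8.88 and 7.78 TPM, a rise of 0.77 ± 0.19 (SE, adjusted p = 0.0146). Brca1 was at 20.8, 20.2, 18.9 and 20.3 TPM against 7.71, 12.9, 15.2 and 13.3 TPM, a rise of 0.73 ± 0.20 (SE, adjusted p = 0.0196). In each of these 6 genes control mouse 1 held the lowest value of the 16 MC-38 libraries. With only the 8 control and RT 12 h libraries in the fit, 3 of the 32 genes rose, namely Blm, Fancd2 and Fanci, where 4.26% of all genes were called higher and 0.784% lower.

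Some genes that did not pass at 12 h had fold changes as large as those that did. Fanca, the gene with the highest mean level in MC-38 tumors, was at 43.1, 42.9, 43.5 and 46.3 TPM at 12 h, above its 11.5, 34.0, 38.3 and 21.8 TPM in the control mice, with a log2 fold change of 0.86 ± 0.32 (SE) and an adjusted p of 0.0501. Rad51b had a log2 fold change of 0.93 (adjusted p = 0.0659), from levels of 2.03 to 4.88 TPM in the control mice and 3.06 to 7.30 TPM at 12 h, which overlapped. Nbn, lower in RM-9 tumors at this time, had a log2 fold change of 0.22 in MC-38 tumors (adjusted p = 0.159). Rad51b and Nbn are named here, and Fanca at this time, after their values were seen.

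At 24 h, 9 of the 32 genes rose in MC-38 tumors, and all 9 were among the 16 that rose at 12 h. They were Bard1, Brca2, Rad54l, Mre11a, Exo1, Blm, Fancd2, Fanci and Eme1, and both times share the control mice. Among all genes tested, 13.2% were called higher and 0.548% lower. The median of the 32 was 0.37, against 0.22 for all genes, and 8 genes lay above all control mice, against 14.8% of all genes. Rad54l, a motor protein that stimulates strand exchange, was at 17.3, 36.5, 27.4 and 34.4 TPM at 24 h and at 10.7, 16.2, 20.5 and 18.01 TPM in the control mice, so the groups overlapped in RT mouse 1. It rose by 0.79 ± 0.21 (SE, adjusted p = 0.0246). Brca2 was at 10.1, 15.9, 11.8 and 13.1 TPM, a rise of 0.77 ± 0.19 (SE, adjusted p = 0.0152), and Fancd2 at 15.0, 24.6, 14.6 and 21.6 TPM, a rise of 0.76 ± 0.21 (SE, adjusted p = 0.0247). Both were above all control mice, and mouse 2 was the highest of its group in each of the 3 genes. Blm rose by 0.67 ± 0.18 (SE, adjusted p = 0.024), Eme1, the partner of the MUS81 nuclease, by 0.60 ± 0.16 (SE, adjusted p = 0.0214), and Bard1, the partner that stabilises BRCA1, by 0.60 ± 0.17 (SE, adjusted p = 0.0276). None of the 7 core complex genes and none of the 5 accessory complex genes passed. With only the control and RT 24 h libraries in the fit, none of the 32 genes passed by limma, where 1.90% of all genes were called higher and 0.0828% lower. Between 24 h and 3 h, none of the 32 genes differed by limma, where 1.98% of all genes were called higher and 0.191% lower, and 3 of 32 had an unadjusted p under 0.05, against 14.1% of all genes. Dna2 and Xrcc3 were the 2 genes whose 24 h mice all lay below the 3 h mice, against 2.78% of all genes. Dna2 had the smallest p, at 9.57, 16.3, 14.8 and 16.05 TPM at 24 h against 20.98 to 23.1 TPM at 3 h, with a log2 fold change of -0.65 ± 0.18 (SE, adjusted p = 0.0774). It was called lower after median-ratio scaling and after rescaling without mitochondrially encoded genes. Rad51c and Xrcc3, which act in 1 accessory complex, followed with adjusted p values of 0.18 and 0.328.

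The stretches just before 4 of the 9 genes that rose at both 12 h and 24 h are printed to show promoter words of cell cycle genes. They come from RefSeq on build GRCm38.p6, where 24 of the 32 genes had an entry, and end where the deposited tables start the gene. Of the 9 genes, 7 had an entry, and the 4 were chosen because a word searched for lies in a stretch that reaches the gene. Fanci and Eme1 hold none of the words, and the entry of Brca2, which holds an E2F word, stops short of the gene's start in the tables. Capitals mark 3 kinds of word, searched on both strands: the E2F words TTTCCCGC, TTTCGCGC, TTTGCCGC and TTTGGCGC, the CCAAT box word CCAAT and the word TTTGAA of the cell cycle homology region. Bard1 (chr1:71103147-71103222, minus strand) holds TTTGAA 68 bases and TTTCCCGC 35 bases before the gene:
Bard1: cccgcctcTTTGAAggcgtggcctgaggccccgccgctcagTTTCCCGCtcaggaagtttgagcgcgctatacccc
Blm (chr7:80535120-80535248, minus strand) holds the CCAAT word once on each strand, 65 and 40 bases before the gene:
Blm: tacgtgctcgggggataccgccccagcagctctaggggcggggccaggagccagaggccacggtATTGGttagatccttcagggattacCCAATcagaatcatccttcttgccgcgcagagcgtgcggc
Mre11a (chr9:14784404-14784653, plus strand) also holds it once on each strand, 73 and 38 bases before the gene:
Mre11a: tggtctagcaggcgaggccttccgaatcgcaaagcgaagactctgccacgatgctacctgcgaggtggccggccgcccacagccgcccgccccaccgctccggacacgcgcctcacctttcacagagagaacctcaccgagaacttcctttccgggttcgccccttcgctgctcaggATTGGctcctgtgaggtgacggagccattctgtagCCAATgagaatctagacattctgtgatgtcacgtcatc
Rad54l (chr4:116123691-116123940, minus strand) holds it once, 50 bases before the gene:
Rad54l: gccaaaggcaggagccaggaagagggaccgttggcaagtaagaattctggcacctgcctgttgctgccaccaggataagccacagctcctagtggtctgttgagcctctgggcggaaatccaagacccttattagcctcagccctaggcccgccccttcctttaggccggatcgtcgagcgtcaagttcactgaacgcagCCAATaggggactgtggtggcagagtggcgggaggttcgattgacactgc

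In the 250 bases before the RefSeq start, 3 of the 24 genes held an E2F word (Bard1, Brca2 and Fancg), 13 held CCAAT and 1 (Bard1) held TTTGAA. Over all 32851 RefSeq promoters of the same length, the shares were 1.86%, 33.85% and 15.99%. The units differ: a gene counted if any of its RefSeq promoters held the word, while the shares are per promoter. These matches describe letters in a window and not sites of binding.

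**Figure D3:**
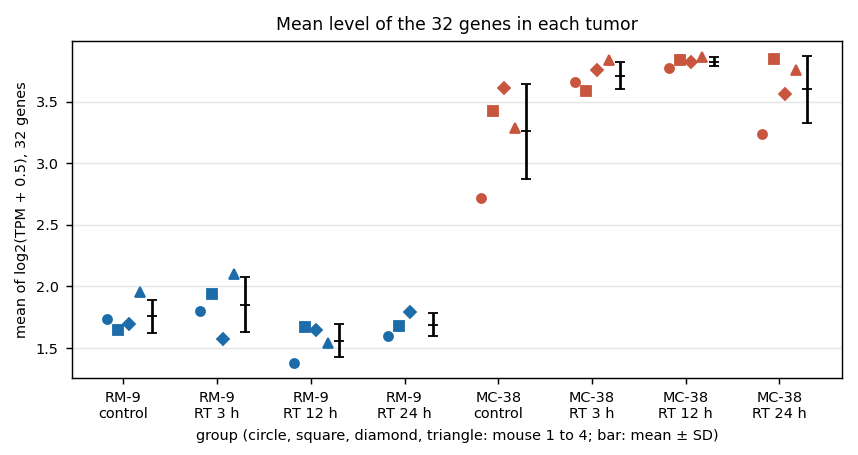
Mean of log2(TPM + 0.5) over the 32 genes in each tumor, by group, with a marker shape for each mouse number and the mean ± SD as a black bar. RM-9 tumors lie between 1.38 and 2.10 and MC-38 tumors between 2.72 and 3.86, and MC-38 control mouse 1 is the lowest MC-38 tumor.

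The mean of log2(TPM + 0.5) over the 32 genes summarises each tumor. The RM-9 control mice averaged 1.76 ± 0.13 (SD, n = 4). The 3 h mice averaged 1.85 ± 0.22 (SD, n = 4), those of 12 h 1.56 ± 0.13 (SD, n = 4) and those of 24 h 1.69 ± 0.095 (SD, n = 3). The 12 h mice ranged from 1.38 to 1.67 and the control mice from 1.65 to 1.95, so the groups overlapped. The MC-38 control mice averaged 3.26 ± 0.39 (SD, n = 4). After RT the mean was 3.71 ± 0.11 (SD, n = 4) for the 3 h mice, 3.82 ± 0.038 (SD, n = 4) for the 12 h mice and 3.60 ± 0.27 (SD, n = 4) for the 24 h mice. The 12 h mice, between 3.77 and 3.86, lay above the highest control mouse at 3.61, while the 3 h and 24 h groups overlapped the controls. The 4 MC-38 control mice were at 2.72, 3.42, 3.61 and 3.29.

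MC-38 control mouse 1 stood apart in these genes. It held the lowest TPM of all 16 MC-38 libraries in 26 of the 32 genes. Its muscle genes summed to 13365 TPM, against 25.5 to 2202 TPM in the other 3 control mice, and the single mitochondrial gene mt-Nd4l took 29.6% of its TPM, the highest share among the MC-38 libraries. Without this mouse 9 of the 32 genes rose at 12 h, Bard1, Palb2, Brca2, Mre11a, Exo1, Blm, Fancd2, Fanci and Eme1, and 2 rose at 24 h, Bard1 and Brca2. Of all genes, 9.92% were then called higher and 1.78% lower at 12 h, and 7.81% higher and 1.06% lower at 24 h. The medians of the 32 were then 0.29 at 3 h, 0.36 at 12 h and 0.18 at 24 h, against 0.07, 0.20 and 0.11 for all genes. Other single mice also moved the counts. At 12 h the count was 26 without control mouse 3 and 7 without RT mouse 2 or RT mouse 4, and at 24 h it was 4 without control mouse 4, 1 without RT mouse 4 and 0 without RT mouse 2. The counts over all genes in these other fits are not set beside them. They therefore show only how far the calls rested on single mice. Whichever mouse was left out, Bard1, Brca2, Blm, Fancd2, Fanci and Eme1 rose at 12 h, while no gene rose at 24 h in every such fit. MC-38 RT 24 h mouse 1, whose muscle genes summed to 4321 TPM, had the lowest value of its group, 3.23. In whole tumors, fewer cells of a type and less RNA per cell cannot be told apart. In RM-9 tumors the lowest of the 15 values, 1.38, belonged to RT 12 h mouse 1, whose muscle genes summed to 3.74 TPM, the lowest of all, and whose mitochondrially encoded genes took 57.2% of its TPM, the highest share of all. The part of the muscle RNA and of the mitochondrial share in these results was not tested.

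**Figure D4:**
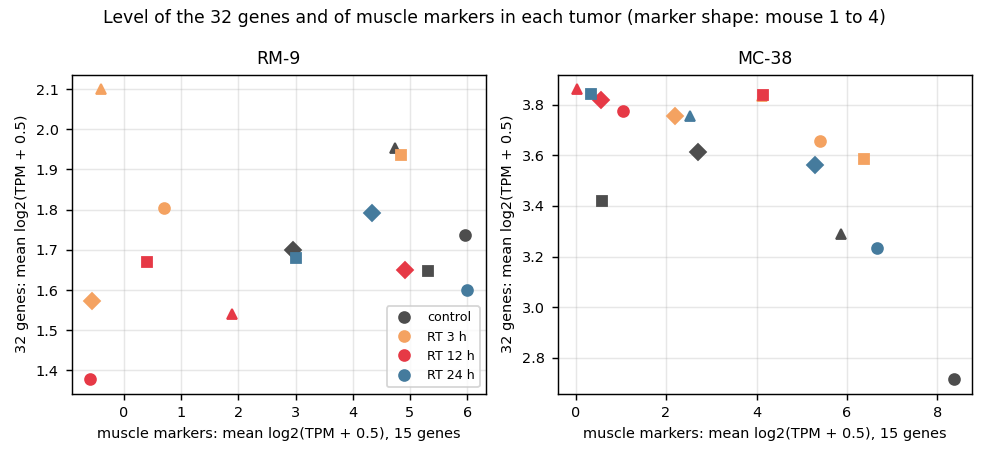
Mean of log2(TPM + 0.5) over the 32 genes (vertical axis) against the same mean over 15 skeletal muscle genes (horizontal axis) in each tumor, colored by group. In MC-38 tumors the highest muscle value, 8.36, goes with the lowest value of the 32 genes, 2.72, and in RM-9 tumors the lowest muscle value, -0.588, goes with the lowest value of the 32 genes, 1.38.

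TPM adds up to a fixed total, so a change in a few abundant RNAs shifts all other genes. In MC-38 tumors the median log2 fold change of all genes was 0.19 at 3 h, 0.33 at 12 h and 0.22 at 24 h, and median-ratio scaling brought these to -0.01, 0.00 and -0.02. On that scale the medians of the 32 genes were 0.29, 0.21 and 0.12, so they stayed above the median of all genes at each time. On that scale 7 of the 32 rose at 12 h, namely Bard1, Palb2, Brca2, Blm, Fancd2, Fanci and Eme1, where 6.27% of all genes were called higher and 9.98% lower. At 24 h 7 rose, namely Bard1, Brca2, Rad54l, Exo1, Blm, Fancd2 and Eme1, and Nbn fell, where 7.80% of all genes were called higher and 8.21% lower. At 12 h and 24 h these genes were all among those that rose on the TPM scale at the same time. At 3 h Blm rose on the median-ratio scale, and none of the 32 rose on the TPM scale. With the median-ratio scaling and without control mouse 1, Bard1, Blm and Fancd2 rose at 12 h, Bard1, Brca2, Blm and Eme1 rose at 24 h, and Nbn and Fancc fell at 24 h. Of all genes, 2.23% were then called higher and 4.54% lower at 12 h, and 5.67% higher and 5.50% lower at 24 h.

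**Figure D5:**
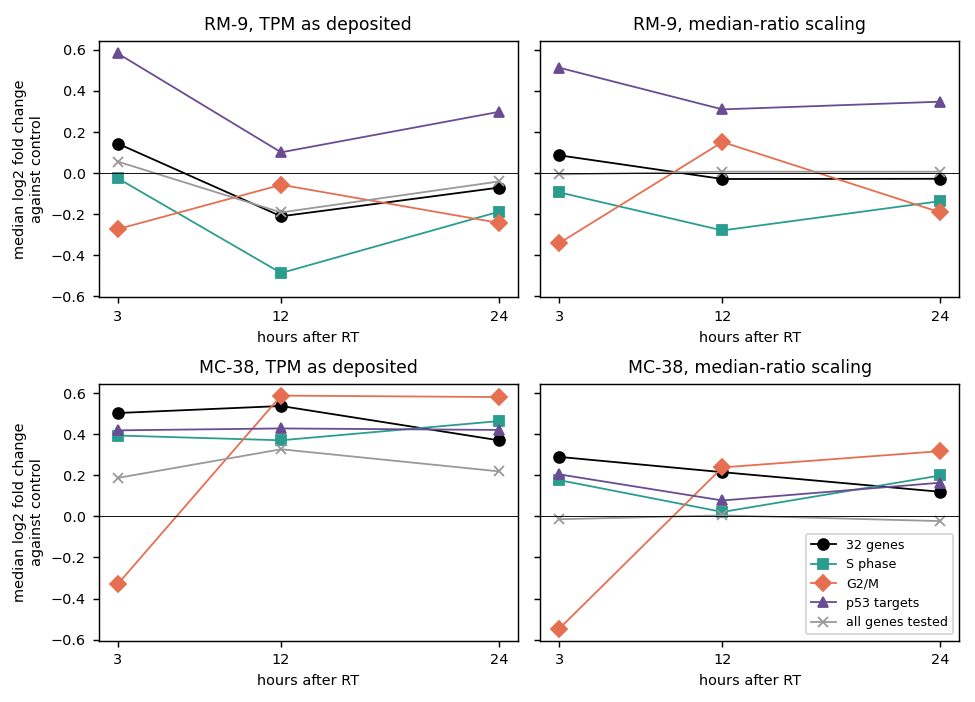
Median log2 fold change against control at the 3 times after RT for the 32 genes and for genes of S phase, G2/M, p53 targets and all genes tested, with TPM as deposited (left) and after median-ratio scaling (right). In MC-38 tumors the median of the 32 genes is above that of all genes at each time on both scales, whereas the G2/M genes are below it at 3 h, at -0.33 on the TPM scale.

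On the TPM scale, the change at 12 h after RT was larger in MC-38 than in RM-9 tumors for most of the 32 genes. In a single fit of all libraries, the difference between the models (the MC-38 log2 change minus the RM-9 log2 change) passed the test for 22 of the 32 genes at 12 h, each with a larger value in MC-38 tumors, where 44.9% of all genes did so and 0.469% were larger in RM-9 tumors. The median difference was 0.78, against 0.50 for all genes. Blm differed by 1.14 ± 0.26 (SE, adjusted p = 0.00317), Fancd2 by 1.08 ± 0.29 (SE, adjusted p = 0.00674), Fanca by 1.08 ± 0.40 (SE, adjusted p = 0.0311) and Palb2 by 1.00 ± 0.28 (SE, adjusted p = 0.00832). All 6 end resection genes and all 4 genes of the BRCA group were among the 22, and none of the 3 nuclease genes was. This count rested on the scaling. With median-ratio scaling only Blm passed, where 1.51% of all genes were called higher and 231 of the 15358 lower, and the median difference was 0.26, against 0.02 for all genes. Without MC-38 control mouse 1, 13 genes passed, where 27.4% of all genes were called higher and 0.221% lower. At 3 h no gene of the 32 differed between the models, and none of the 15358 genes tested did by limma, with 9.89% of them and 4 of the 32 at an unadjusted p under 0.05. Fancl, Nbn and Dna2 had the smallest p values at 3 h, with differences of 0.63 ± 0.21, 0.52 ± 0.18 and 0.77 ± 0.31 (SE) and adjusted p values of 0.365, 0.371 and 0.45. At 24 h Brca2 alone passed, with a difference of 1.13 ± 0.27 (SE, adjusted p = 0.0313), where 1.81% of all genes passed. Bard1 with 0.74 ± 0.21 (SE, adjusted p = 0.0608) and Blm with 0.89 ± 0.27 (SE, adjusted p = 0.0701) came next. No gene passed at 24 h without MC-38 control mouse 1, MC-38 RT mouse 2 or 4, RM-9 control mouse 1 or 4, or RM-9 RT mouse 1, while 4 passed without MC-38 control mouse 2, 8 without MC-38 control mouse 3 and 6 without MC-38 RT mouse 1. Over all 15358 genes, 98 were called higher and 1 lower without MC-38 control mouse 1. For the other fits no share of all genes is given, so these counts show only how far the calls rested on single mice.

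In untreated tumors all 32 genes were higher in MC-38 than in RM-9 tumors, where 64.7% of all genes were called higher. In 27 of the 32 the control mice did not overlap, against 50.9% of all genes, and the median log2 difference was 1.53, against 0.63 for all genes. Rad51b and Rad51c, which were below the mean of 0.5 TPM in RM-9 tumors, entered this test through their MC-38 levels, so they had to differ, and without them the count is 30 of 30. The other counts of the 32 genes, the medians and the order by size in this paragraph include these 2 genes. Rad51c was at 4.70 to 7.91 TPM against 0.297 to 0.462 TPM (log2 difference 2.92 ± 0.21, SE), a difference that ran from 2.37 with a pseudocount of 1 to 3.74 with one of 0.1. Next by size came Fanca at 11.5 to 38.3 against 2.51 to 4.53 TPM (2.69 ± 0.28, SE), Rad54l at 10.7 to 20.5 against 1.74 to 2.96 TPM (2.62 ± 0.20, SE) and Dna2 at 9.57 to 18.05 against 2.05 to 3.65 TPM (2.18 ± 0.22, SE). The adjusted p values of these 3 were 2.69e-09, 5.44e-12 and 9.98e-10. With median-ratio scaling 25 of the 32 passed, where 34.1% of all genes were called higher and 31.5% lower, and Xrcc2, Rad52, Fance, Fancf, Fancm, Slx4 and Mus81 did not. The median difference was then 0.95, against 0.03 for all genes. With TPM rescaled without the mitochondrially encoded genes, 27 of the 32 were called higher. Of the 15332 genes tested there, 6954 were called higher and 3333 lower. The median difference on that scale was 1.22, against 0.26 for all genes. The tumor model and anything else that differed between the 2 sets of libraries cannot be told apart.

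The other 40 genes listed for the pathway were followed in the same comparisons. In RM-9 tumors 5 of the 39 tested fell at 12 h and none was called at 3 h or 24 h, against 8.30% of all genes called lower at 12 h. Ercc1, of the nuclease that cuts at crosslinks, fell by 0.46 on the log2 scale (SE 0.10, adjusted p = 0.029), Rpa2, of the complex that coats single-stranded DNA, fell by 0.62 (SE 0.15, adjusted p = 0.0303) and Bre, of the BRCA1-A complex, fell by 0.42 (SE 0.10, adjusted p = 0.0304). In MC-38 tumors none of the 40 was called at 3 h, 9 rose at 12 h, against 28.5% of all genes, and 6 rose at 24 h, against 13.2%. Without control mouse 1 these counts were 4 and 1, and with median-ratio scaling 3 rose and 3 fell at 12 h and 3 rose and 5 fell at 24 h. At 12 h Gen1, a Holliday junction resolvase, rose by 0.73 ± 0.17 (SE, adjusted p = 0.0138), the helicase Wrn by 0.74 ± 0.19 (SE, adjusted p = 0.0173) and the helicase Helq by 0.67 ± 0.18 (SE, adjusted p = 0.0176). At 24 h Faap24, a DNA-binding core complex partner, rose by 0.77 ± 0.20 (SE, adjusted p = 0.0191), Helq by 0.64 ± 0.18 (SE, adjusted p = 0.0245) and Top3a, the topoisomerase that works with BLM, by 0.60 ± 0.18 (SE, adjusted p = 0.0327).

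Lists of cell cycle genes were followed beside the 32. Of 30 G2/M genes none was called in MC-38 tumors at 3 h, with a median of -0.33 (11 with an unadjusted p under 0.05), and 17 rose at 12 h and 12 at 24 h, with medians of 0.59 and 0.58, against 28.5% and 13.2% of all genes. Without control mouse 1 these counts were 3 and 1, and with median-ratio scaling they were 3 and 7. From 3 h to 24 h, 17 of the 30 G2/M genes rose with a median of 1.01, while the 32 genes had a median of -0.07 and none passed. Of 30 S phase genes none was called at 3 h, with a median of 0.39, and 13 rose at 12 h and 19 at 24 h. Without control mouse 1 these counts were 8 and 13, and with median-ratio scaling 2 rose and 2 fell at 12 h and 14 rose and 1 fell at 24 h. Of the 30 S phase genes, 14 fell in RM-9 tumors at 12 h, with a median of -0.49, against 2 of 30 for the genes described here and 8.30% of all genes, and no G2/M gene was called. With median-ratio scaling the count of S phase genes by limma there was 0, with a median of -0.28. No test compared the lists with each other.

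Markers of immune cells moved at the same time. Of 9 macrophage genes, 5 fell in RM-9 tumors at 12 h and 7 did so in the MC-38 model, where their summed level was 200.3 to 382.0 TPM against 397.4 to 618.2 TPM in RM-9 control tumors and 319.6 to 753.0 TPM against 866.8 to 1385 TPM in MC-38 control tumors. Of 6 T cell genes tested in RM-9 tumors, 4 fell at 12 h, and of 9 in MC-38 tumors 5 fell at 12 h and 4 at 24 h. Over all genes tested, 1163 of 14013 were called lower in RM-9 tumors at 12 h. In MC-38 tumors 406 of 15698 were called lower at 12 h and 86 at 24 h. With median-ratio scaling none of the 6 T cell genes fell in RM-9 tumors, where 6 of all genes were called lower. In MC-38 tumors 9 fell at 12 h and 7 at 24 h on that scale, where 1566 and 1289 of all genes were called lower. The 8 neutrophil genes summed to 17.95 to 26.8 TPM in RM-9 and 30.2 to 47.7 TPM in MC-38 tumors at 12 h, against 22.96 to 32.9 TPM and 25.1 to 37.3 TPM in control tumors. Fibroblast genes summed to 344.4 to 768.6 TPM in MC-38 tumors at 12 h against 516.3 to 842.9 TPM in control tumors, and 1 of 8 rose. At 24 h in MC-38 tumors, the neutrophil genes summed to 43.3 to 151.7 TPM and 7 endothelial genes to 60.7 to 78.6 TPM, against 44.8 to 59.8 TPM for the endothelial genes in control tumors. Neither sum overlapped its controls, and Mmp9 of the neutrophil and Cdh5 and Kdr of the endothelial genes rose. Of all 15698 genes tested, 2073 were called higher. Mmp9 had a mean of 49.9 TPM at 24 h and 11.4 TPM in control tumors. Csf3r, Cxcr2, Retnlg, S100a8, S100a9 and Trem1 overlapped their controls and were not called. Cldn5, Emcn, Pecam1, Tek and Vwf were not called either. The log2 fold changes of Tek, Vwf and Trem1 were negative, at -0.24, -0.18 and -0.05, and the others were positive. The part of these cells in the changes of the 32 genes was not tested.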

How the data were processed

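Tumors were from RM-9 and MC-38 cells in C57BL/6J mice, and RNA was isolated with RNeasy columns, made into TruSeq Stranded mRNA libraries and sequenced as single-end reads of 75 bases. The authors deposited 1 table per library with coverage (mean reads per base, a signal), FPKM and TPM per gene. The deposited TPM and FPKM values are normalized and are not counts, and the deposited coverage signal is scaled to no library total. The submitters' processing notes name bcl2fastq 2.17 and GRCm39, but 91.1% of the 45137 genes shared with GENCODE M21 (GRCm38) have its start or end, as do 30 of the 32 genes described here, so coordinates are given as GRCm38. The aligner's settings are not given in the sources used here. Library depth was estimated from the ratio of coverage to FPKM.

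TPM was analyzed as log2(TPM + 0.5), which understates the change of low genes, in genes with a mean of at least 0.5 TPM in a model. limma 3.58.1 (R 4.3.3) with a trended prior was fitted to all libraries of a model, and to both models for differences between them, with Benjamini-Hochberg adjustment over all genes tested and an adjusted p under 0.05 as the threshold. The study's methods compared TPM by Dunnett's comparisons, which served as an alternative. Median-ratio scaling divides each library by its median ratio to the geometric mean of all libraries. Single genes were also compared by a two-sided exact permutation test. On simulated data for MC-38 RT 12 h against control, run on 15698 genes, 75% of genes changed by 1 and 94% of those changed by 2 on the log2 scale were recovered, with 6 false calls. The simulation changed 200 genes, with independent noise in each gene and no shift of whole libraries or outlying mouse. These rates therefore do not carry over to the measured comparison. Fold changes, medians and figures were computed with Python 3.11.15.

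The members and gene lists were chosen with earlier results of these data known. Against control, the genes named were those past the threshold, at most 6, by size of the log2 fold change, or the 3 with the smallest p where fewer than 3 passed. In other comparisons at most 4 were named in that order, and of the other pathway genes at most 3 by p. Other genes are said to be chosen after their values were seen. Alternatives were another pseudocount (0.1 or 1), filter, scaling, spread estimate, replicate block, and each mouse left out. The tables hold whole tumors, host cells included. Items withheld for evaluation are not reported here.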

Additional observations from a re-analysis of the deposited data

Results flagged for a closer look

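In 8 of the 231 groups of 4 mice tested, 1 mouse lay far from the other 3 in TPM, where chance gives about 5% of groups. In MC-38 tumors, Palb2 was at 4.23 in RT 24 h mouse 1 (the others 6.94 to 7.40), Mus81 was at 5.33 in the same mouse (the others 9.02 to 9.46), and Fancf was at 8.05 in RT 24 h mouse 2 (the others 6.47 to 6.57). Rad51d was at 10.6 in MC-38 control mouse 1 (the others 14.7 to 15.1). At 3 h, Rad54b was at 11.55 in MC-38 RT mouse 4 (the others 8.66 to 8.94) and Fancg at 4.26 in RT mouse 2 (the others 6.33 to 6.44). In RM-9 control tumors, Fancf was at 3.81 in mouse 1 (the others 4.69 to 4.73) and Eme1 at 4.16 in mouse 4 (the others 2.82 to 3.03).

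The change at 12 h differed between the models in 22 genes, by a test of the difference itself. A large share of all genes tested, given above, also passed this test with a larger value in MC-38 tumors. Whether the genes described here exceeded that share was not tested. The log2 difference (MC-38 minus RM-9) was 0.91 for Bard1, 1.14 for Blm, 0.83 for Brca1, 0.98 for Brca2, 0.66 for Brip1, 0.96 for Dna2, 0.83 for Exo1 and 1.08 for Fanca. It was 1.08 for Fancd2, 0.60 for Fance, 0.71 for Fancf, 0.89 for Fanci, 0.86 for Fancl, 0.65 for Fancm, 0.78 for Mre11a and 0.84 for Nbn. It was 1.00 for Palb2, 0.95 for Rad50, 0.78 for Rad51d, 0.87 for Rad54b, 0.89 for Rad54l and 0.57 for Rbbp8. At 24 h it was 1.13 for Brca2. With median-ratio scaling only Blm passed at 12 h.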

How the results depend on the processing

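The counts of genes called moved most with the scaling, with the groups in the fit and with single mice, and no direction of a named gene reversed. Counts over all 15698 genes tested moved as well. At MC-38 12 h, 4469 were called higher as deposited and 985 with median-ratio scaling. The count was 669 with only the compared groups in the fit and 1558 without control mouse 1. With median-ratio scaling 2 genes were called at RM-9 3 h, 0 at RM-9 12 h, 1 at MC-38 3 h, 7 at MC-38 12 h and 1 between MC-38 24 h and 3 h, while the difference between models was called for 1 gene at 12 h and 2 at 24 h. Of all genes, 43 were called higher and 56 lower on that scale at MC-38 3 h. Between MC-38 24 h and 3 h, 747 were higher and 510 lower. For the difference at 24 h, 190 were higher and 42 lower. With TPM rescaled without mitochondrially encoded genes the counts were 1 at RM-9 3 h, 0 at RM-9 12 h, 1 at MC-38 3 h, 1 between MC-38 24 h and 3 h, and 12 for the difference at 12 h. Of all genes, 166 were then called higher and 36 lower at RM-9 3 h, and 132 higher and 26 lower at MC-38 3 h. Between MC-38 24 h and 3 h, 655 were higher and 352 lower. For the difference at 12 h, 2198 were higher and 118 lower. With only the compared groups in the fit they were 0 at RM-9 12 h, 3 at MC-38 12 h, 0 at MC-38 24 h and 0 for the difference at 24 h. A mean of at least 5 TPM left 0 at RM-9 12 h, since neither Nbn nor Fancl reaches it there. Dunnett's comparisons, with p not adjusted over genes, gave 2 at RM-9 3 h and 12 at MC-38 3 h. Leaving out 1 mouse gave 0 to 3 genes at RM-9 12 h, 0 to 5 at MC-38 3 h, 7 to 26 at MC-38 12 h, 0 to 12 at MC-38 24 h, 13 to 27 for the difference at 12 h and 0 to 8 at 24 h. Most of these fits have no share of all genes beside them, and the ranges show only how far the calls rested on single mice. Of 2 alternatives chosen after seeing the data, coverage in place of TPM gave 2 for the difference at 24 h, and median-ratio scaling without MC-38 control mouse 1 gave 3 at MC-38 12 h and 2 between MC-38 24 h and 3 h. Mouse numbers did not pair the samples: correlations of same-numbered mice ran from -0.48 to 0.55 over 24 pairs of MC-38 groups, and 7 were over 0.1, and from -0.39 to 0.32 over 21 pairs of RM-9 groups, of which 5 were. With the mouse number as a replicate block the counts were 19 at MC-38 12 h, 10 at MC-38 24 h, 24 for the difference at 12 h and 4 at 24 h, and those of the other comparisons did not change. Over 44 values of named genes and 869 alternatives, 765 kept their direction and their side of the threshold, 82 lost the call and 22 gained it. Besides the cause given for the 5 TPM minimum, the cause of these changes was not tested.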
